A study of Mus musculus with 20 samples.

Results

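The knee articular cartilage of Dio2-/- mice was compared between animals that had run on a treadmill (Run) and animals that had not (NoRun). The comparison took every array labelled Dio2-/-, which gave 9 of the 20 arrays in the series, 3 NoRun and 6 Run. It covered the 23148 of 45281 probes whose detection P-value was below 0.05 on at least 3 of the 20 arrays. Of these probes, 19569 carried 1 gene symbol, for 12310 genes.

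All mice were male, 4 to 6 months old, and on the C57Bl/6 background. The Dio2-/- mice lacked the type 2 deiodinase gene in every tissue from conception and were in backcross generation 6, so that a part of the genome linked to the deleted gene can still be that of the donor strain. Run mice ran for 1 hour on 5 days of each of 3 weeks, at 11 m/min on a slope of 5°, and NoRun mice were kept without forced running. Cartilage was dissected from the left knee and each Illumina MouseWG-6 v2 array received the RNA of 2 mice. NoRun thus stands for 6 mice and Run for 12, and P-values reflect the spread between pools, not between single mice. The 11 wild-type pools, 3 NoRun and 8 Run, carried no deletion and are used here for the shared estimate of the spread and for the difference between the genotypes. The paper gives wild-type mice both as purchased and as littermates, so their origin is not settled.

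Type 2 deiodinase converts thyroxine, the circulating prohormone, into triiodothyronine, the hormone that binds the thyroid receptors. In the growth plate this hormone drives chondrocytes towards hypertrophy, the terminal stage at which they stop making cartilage matrix and mineralise it. Articular chondrocytes do not normally reach that stage. They sense load through ion channels and through the transcriptional cofactors YAP and TAZ, and they make a matrix of type II collagen, aggrecan and COMP.

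Those matrix genes were well above background on all 9 pools. Col2a1 (type II collagen) had log2 intensities between 13.3 and 15.2, and Comp between 14.1 and 15.8. Transcripts of marrow and muscle were also abundant in every pool. Neutrophil granule genes had a mean log2 intensity of 12.07 in NoRun replicate 16, against 14.4 in both NoRun replicates 17 and 19. In Run the same mean was 13.18 in replicate 24 and 14.2 to 14.5 in the other 5 pools. Fast muscle fibre genes were highest in these same replicates, with 14.56 in replicate 16 and 14.73 in replicate 24 against 13.5 to 14.3 in the other 7 pools. Replicates 16 and 24 thus stand apart, one in each group. Values are of all 9 pools, and where leaving out both replicates turned a difference, moved it by more than 1.5 times or ended a call, the value without them stands beside it, other than for further uncalled probes of a gene. Each library was bulk tissue, so fewer cells of a type and less RNA per cell cannot be told apart.

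**Figure D1:**
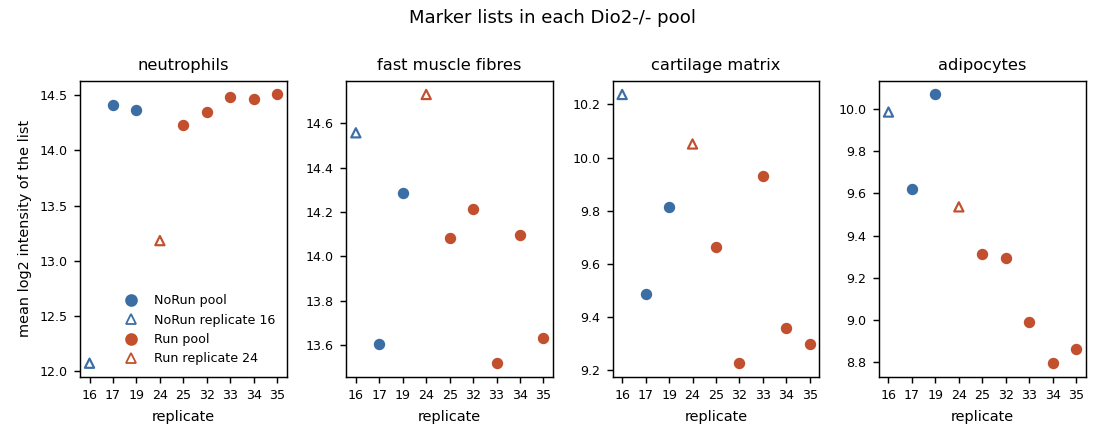
Mean log2 intensity of 4 marker lists (vertical axes, each with its own scale that does not start at 0) in each of the 9 Dio2-/- pools (horizontal axis, replicate number); blue points are NoRun, red points are Run and triangles mark replicates 16 and 24. The 2 triangles are the lowest pools for neutrophil genes and the highest for fast muscle genes, while the adipocyte mean is higher in all 3 NoRun pools than in any Run pool.

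All 3 NoRun pools lay on 1 chip, chip 5, and no Run pool lay on it. The Run pools lay on chip 3 (replicates 32, 33 and 34), chip 4 (replicate 35) and chip 6 (replicates 24 and 25). Running and chip therefore cannot be told apart in these mice. Median intensities overlapped between the groups, with 176.4 to 188.5 in NoRun and 173.9 to 203 in Run. Detected probes numbered 18469, 20854 and 20773 in NoRun replicates 16, 17 and 19, and 19347 to 20002 in Run. Their ranges thus overlapped only through replicate 16, and replicates 17 and 19 lay above every Run pool. The lowest detected log2 signal was 5.87, 5.54 and 5.55 in these NoRun pools and 5.63 to 5.72 in Run. What this adds to the differences of dim probes was not tested. Correlations between Dio2-/- arrays lay between 0.913 and 0.991.

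Dio2 itself was near background. Its brighter probe (ILMN_2766037) had log2 intensities of 6.67, 5.77 and 6.19 in NoRun replicates 16, 17 and 19, and a lowest, median and highest value of 4.95, 5.95 and 6.16 in Run. It was detected in 3 of 3 NoRun and 4 of 6 Run pools labelled Dio2-/-, and in 2 of 11 wild-type pools. The Run and NoRun pools overlapped, with a log2 difference of -0.44 (SE 0.24, limma adjusted P = 0.315, and -0.29 without replicates 16 and 24). The other Dio2 probe did not pass detection in any pool of either genotype. The sources used here do not place either probe inside or outside the deleted segment, and the signal is no check of the genotype labels.

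Running was associated with a small set of probes past the threshold. With limma's moderated test and Benjamini-Hochberg adjustment over all tested probes, 31 probes passed an adjusted P of 0.05 (0.134% of those tested), 14 higher (0.0605%) and 17 lower (0.0734%) in Run. The 14 of 31 higher probes became 2 of 7 when the intensities were quantile-normalized without background correction, and 0 of 5 under cyclic loess. With chip as a random block 2 probes passed, and with position on the chip as a covariate 0 did. The 26 called probes with a symbol belong to 25 genes, 11 higher and 14 lower. Their folds ran from 1.68 to 3.25, against a median absolute log2 difference of 0.219 over all tested probes.

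In each of the 31 probes the values of the 3 NoRun and the 6 Run pools did not overlap, which was the case for 2.35% of all tested probes with Run higher and 2.05% with Run lower. Since the calls were made on these same values, this describes the probes and tests nothing. At an unadjusted P of 0.05, 2249 probes (9.72%) were higher and 2198 (9.50%) lower in Run. When replicates 16 and 24 were left out, 213 probes (0.920%) passed the adjusted threshold, and 24 of the 31 were among them. The other 7, both Acaa2 probes and those of Mrpl15, Slc44a2, Myl10, Crim1 and Smarca5-ps, kept their sign, and the largest adjusted P among the 31 was then 0.0828. The number of calls depended on single pools: it was 1 without NoRun replicate 16, 458 without NoRun replicate 17, 2547 without Run replicate 24 and 240 without Run replicate 25. It was 4 without NoRun replicate 19, and 3, 2, 4 and 3 without Run replicates 32, 33, 34 and 35. A fit of the 9 Dio2-/- arrays alone called 0 probes, with 2863 at an unadjusted P of 0.05. All 31 probes kept their sign and an unadjusted P below 0.05 in each of these fits. Leaving out pools could not turn a sign, since the groups did not overlap in these probes.

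**Figure D2:**
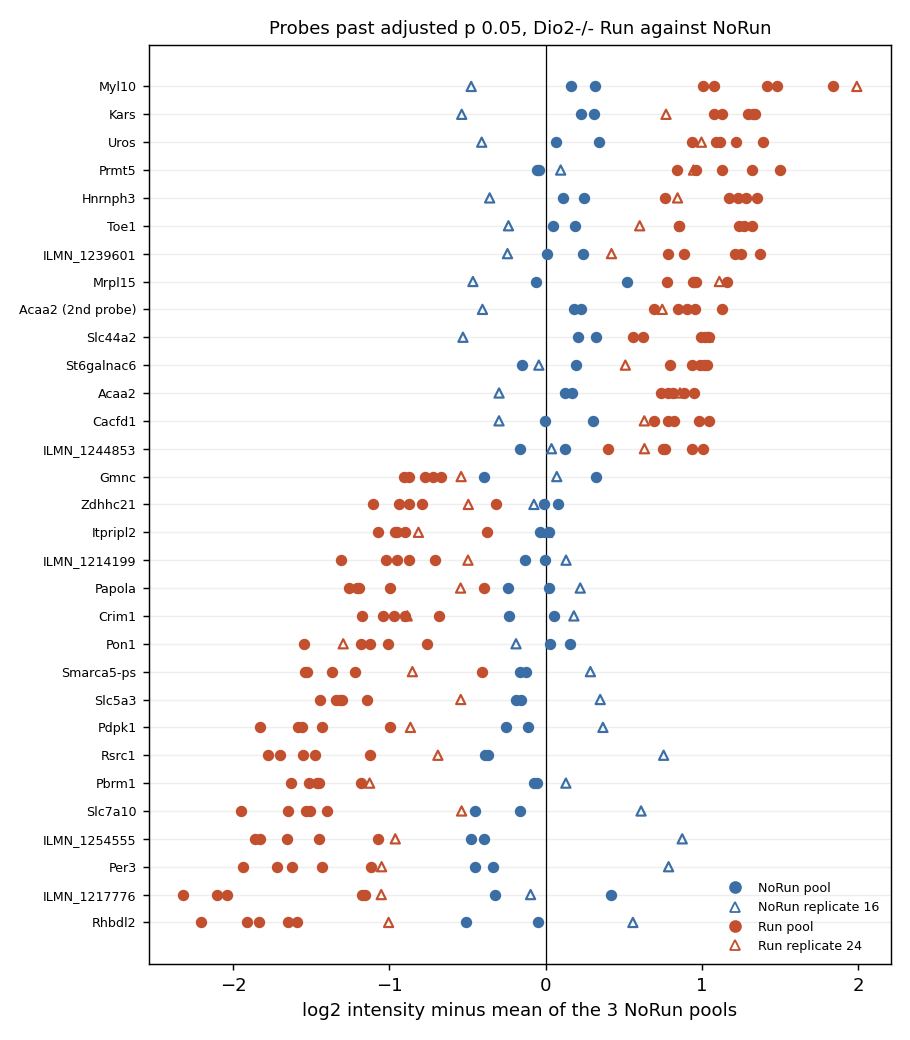
Log2 intensity of the 31 called probes in each Dio2-/- pool minus the mean of the 3 NoRun pools (horizontal axis); each row is a probe, blue points are NoRun, red points are Run and triangles mark replicates 16 and 24. No row has overlap between the groups, which the selection of the probes favours, and in 12 of the 17 lower probes the Run pools nearest to NoRun are both pools of chip 6.

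The called genes are given by role, in groups formed after their values were seen. Among genes of chromatin and protein methylation, Pbrm1 and Prmt5 were called in opposite directions. Pbrm1 encodes a bromodomain subunit of the PBAF chromatin remodelling complex. Its called probe had log2 intensities of 6.62, 6.41 and 6.44 in NoRun replicates 16, 17 and 19 and of 4.86 to 5.36 in Run, with a median of 5.04. It was not above background in any Run pool, so that NoRun was at least 1.76-fold higher (limma adjusted P = 0.00899, and 0.0263 without replicates 16 and 24). Of the 4 other Pbrm1 probes, 3 had its sign, with log2 differences of -0.97, -0.36 and -0.12, and 1 had the opposite sign at 1.01. None of these was called.

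Prmt5 encodes the main symmetric arginine methyltransferase, which modifies histones and splicing proteins. Its called probe had 6.43, 6.30 and 6.28 in NoRun and lay between 7.18 and 7.84 in Run, with a median of 7.38. All Run pools were above all NoRun pools, 2.17-fold in the mean (log2 difference 1.12, SE 0.21, adjusted P = 0.0455). The other Prmt5 probes gave log2 differences of -0.25 and 0.01. Smarca5-ps, annotated as a pseudogene of the ISWI remodeller ATPase Smarca5, had 10.69, 10.28 and 10.24 in NoRun and 8.86 to 9.99 in Run, and fell by 1.15 on the log2 scale (SE 0.22, adjusted P = 0.046). The array cannot separate it from its parent gene with certainty, and without replicates 16 and 24 its adjusted P was 0.0507.

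Genes of RNA processing were called in both directions. Hnrnph3, a nuclear RNA-binding protein of the hnRNP H family, had 5.62, 6.10 and 6.23 in NoRun and 6.75 to 7.33 in Run, with a median of 7.19. The Run pools were 2.16-fold higher (log2 difference 1.11, SE 0.18, adjusted P = 0.0239), and 2 of the 3 NoRun pools were above background. Toe1, an exonuclease that trims the 3′ ends of small nuclear RNAs, had 5.43, 5.85 and 5.71 in NoRun against 6.27 to 6.99 in Run. It was 2.03-fold higher (SE 0.18 on the log2 scale, adjusted P = 0.0323), while its other probes gave 0.36 and -0.06. Here too 2 of the 3 NoRun pools were above background, so background sets part of both folds.

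Rsrc1, an SR-related splicing factor, was called lower. It had 10.08, 8.95 and 8.93 in NoRun and 7.54 to 8.63 in Run, a 2.61-fold difference (SE 0.27 on the log2 scale, adjusted P = 0.0485), and its other probe gave -0.13. Papola, the poly(A) polymerase of most messenger RNAs, had 11.43, 11.22 and 10.96 in NoRun and 9.94 to 10.81 in Run. It was 1.91-fold lower (SE 0.18 on the log2 scale, adjusted P = 0.0474), and 0.0449 was its adjusted P without replicates 16 and 24. Prpf8, the core scaffold of the spliceosome, had a log2 difference of 1.48 at its dimmer probe and did not pass with all pools (adjusted P = 0.0611, and 0.0422 without replicates 16 and 24). Its brighter probe gave -0.13.

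Acaa2, Mrpl15, Uros and Kars, with roles in mitochondria or in the synthesis of haem and protein, were called higher. Acaa2, the mitochondrial thiolase that catalyses the last step of fatty acid β-oxidation, was the only gene with 2 called probes. The brighter had 9.06, 9.69 and 9.64 in NoRun and 10.16, 10.34 and 10.59 as lowest, median and highest value in Run. The 2 probes gave log2 differences of 0.88 (adjusted P = 0.0474) and 0.84 (adjusted P = 0.0482). Without replicates 16 and 24 both lost the call, at 0.70 (adjusted P = 0.0623) and 0.69 (adjusted P = 0.0754). A further Acaa2 probe gave 0.95 and another 0.12, neither called.

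Mrpl15, a protein of the large mitochondrial ribosomal subunit, had 6.70, 7.69 and 7.11 in NoRun and 7.94 to 8.32 in Run, 1.98-fold higher (SE 0.19 on the log2 scale, adjusted P = 0.0474). All of its 5 other probes lay above 0, from 0.16 to 0.60, and none was called. Replicate 16 was the lowest NoRun pool, and without replicates 16 and 24 the difference was 0.73 (adjusted P = 0.0781). Uros, the fourth enzyme of haem synthesis, had 5.57, 6.05 and 6.32 in NoRun against 6.92 to 7.38 in Run. It was 2.18-fold higher (SE 0.20 on the log2 scale, adjusted P = 0.0349, and 0.0477 without those replicates), with 2 of the 3 NoRun pools above background. The brighter Uros probes gave log2 differences of 0.28 and -0.003. Kars, the lysyl-tRNA synthetase, had 5.92, 6.76 and 6.68 in NoRun and a lowest, median and highest value of 7.22, 7.66 and 7.79 in Run. It was 2.23-fold higher (SE 0.20 on the log2 scale, adjusted P = 0.0349), and its other probe gave 0.29.

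Membrane transporters were called in both directions. Slc7a10 encodes the neutral amino acid transporter Asc-1, which is also a surface marker of white adipocytes in mouse. It had 8.36, 7.30 and 7.59 in NoRun and a lowest, median and highest value of 5.80, 6.23 and 7.21 in Run, where replicate 24 was the highest pool. It was 2.69-fold lower in Run (log2 difference -1.43, SE 0.27, adjusted P = 0.0455, and 0.0289 without replicates 16 and 24). Slc5a3, which imports the osmolyte myo-inositol together with sodium, had 6.70, 6.19 and 6.16 in NoRun. In Run it was 5.81 in replicate 24 and 4.90 to 5.20 in the other pools, and it was above background in 1 of the 6. The fitted difference was 2.27-fold (SE 0.19 on the log2 scale, adjusted P = 0.0239).

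Slc44a2, a choline transporter-like protein, had 6.64, 7.49 and 7.37 in NoRun and 7.72 to 8.21 in Run, 1.84-fold higher (log2 difference 0.88, adjusted P = 0.0474). Without replicates 16 and 24 it was 0.58 (adjusted P = 0.0768). Its other probes gave 0.83 and, at the brightest, -0.14. Slc29a1, which carries nucleosides such as adenosine, was next below the threshold. It had 6.96, 7.42 and 6.36 in NoRun and 7.44 to 8.40 in Run, with a log2 difference of 1.15 (adjusted P = 0.0511, and 0.0359 without those replicates). Its other, brighter probe gave -0.21.

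Several called genes encode enzymes and membrane proteins of signalling or of the secretory route. Pdpk1, the kinase that activates AKT downstream of insulin and IGF receptors, had 9.63, 9.14 and 9.01 in NoRun and 7.43, 7.76 and 8.39 as lowest, median and highest value in Run. It was 2.60-fold lower (log2 difference -1.38, SE 0.26, adjusted P = 0.0455), and its other probe gave -1.28 (adjusted P = 0.0803). Crim1, a transmembrane protein that binds BMPs, had 6.30, 5.88 and 6.17 in NoRun and 4.95 to 5.43 in Run. It was not above background in any Run pool, so NoRun was at least 1.36-fold higher (adjusted P = 0.0455, and 0.0588 without replicates 16 and 24).

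Rhbdl2, a rhomboid protease that cuts other membrane proteins, had the largest fold of the 31. It had 10.94, 10.34 and 9.87 in NoRun and 8.18, 8.64 and 9.38 as lowest, median and highest value in Run, 3.25-fold lower (SE 0.33 on the log2 scale, adjusted P = 0.0482). Its other probe gave a log2 difference of 0.01. Zdhhc21, a palmitoyltransferase, had 9.48, 9.64 and 9.55 in NoRun and 8.45 to 9.24 in Run, 1.69-fold lower (adjusted P = 0.0455), with -0.51 at its other probe. St6galnac6, a sialyltransferase of the Golgi, had 5.51, 5.74 and 5.40 in NoRun and 6.06 to 6.58 in Run. It was 1.84-fold higher (log2 difference 0.88, SE 0.15, adjusted P = 0.0239). Only 1 of the 3 NoRun pools was above background, so background sets part of this fold. The other St6galnac6 probes all lay above 0, at 0.72, 0.34 and 0.03.

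Pon1 had the smallest adjusted P together with Pbrm1. It encodes paraoxonase 1, an esterase carried on high-density lipoprotein, and has no other tested probe. It had 9.11, 9.33 and 9.46 in NoRun and 7.76, 8.15 and 8.54 as lowest, median and highest value in Run. Replicate 16 was the lowest NoRun pool and replicate 24 lay inside the Run range, and the difference was 2.22-fold (log2 difference -1.15, SE 0.16, adjusted P = 0.00899, and 0.0221 without those replicates). Gmnc, a regulator of multiciliated cell formation, had 6.41, 5.95 and 6.67 in NoRun and 5.43 to 5.80 in Run, 1.68-fold lower (adjusted P = 0.0455). Only 1 of the 6 Run pools was above background for Gmnc, so background sets part of this fold. Myl10, a myosin regulatory light chain, had 5.13, 5.92 and 5.76 in NoRun and 6.61 to 7.60 in Run, and replicate 24 was its highest pool. It was 2.77-fold higher (SE 0.29 on the log2 scale, adjusted P = 0.0482, and 0.0828 without replicates 16 and 24), and 2 of the 3 NoRun pools were above background. Fast muscle genes were also highest in replicate 24, and their part in the Myl10 value was not tested.

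Cacfd1 and Itpripl2, whose functions are less well described, were called higher and lower. Cacfd1 had 5.61, 6.21 and 5.91 in NoRun and 6.54 to 6.96 in Run (1.77-fold, adjusted P = 0.0455), and Itpripl2 had 10.92, 10.93 and 10.87 against 9.83 to 10.53 (1.80-fold, adjusted P = 0.0455). The called Cacfd1 probe was above background in 2 of the 3 NoRun pools. Dimmer Cacfd1 probes gave 0.70 and 0.14, and the brightest gave -0.07 and -0.01. The other Itpripl2 probe gave -0.11. Of the 25 called genes, 16 have 33 other tested probes, and 24 of these had the sign of the called probe. The other 5 called probes carry no single symbol in the platform annotation. Among them ILMN_1217776 had 11.61, 12.12 and 11.38 in NoRun and 9.38 to 10.65 in Run (3.12-fold lower, adjusted P = 0.0239), and ILMN_1239601 was 1.98-fold higher (adjusted P = 0.0485).

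Per3, a period protein of the circadian clock, was called lower at 1 of its 2 probes. The called probe had 7.35, 6.22 and 6.10 in NoRun replicates 16, 17 and 19, and 4.62, 5.03 and 5.51 as lowest, median and highest value in Run. Replicate 16 was the highest of the 9 pools, and no Run pool was above background, so that NoRun was at least 1.84-fold higher (adjusted P = 0.0239, and 0.0341 without replicates 16 and 24). The other Per3 probe, above background in 2 of 3 NoRun and 5 of 6 Run pools, gave a log2 difference of 0.16 (adjusted P = 0.717). Period genes oscillate over the day in mouse tissues, and Per3 carries D-boxes, sites for the proteins Dbp, Tef and Hlf, in its promoter. The RefSeq promoter table (GRCm38.p6) was searched for them as TTATGTAA or TTATGCAA on either strand, since Per3 was the called gene of the clock. The 250 bases before the Per3 start, on the minus strand at chr4:151044666-151044915, hold 2 copies, in capitals, with 197 and 150 bases between them and the start.
Per3: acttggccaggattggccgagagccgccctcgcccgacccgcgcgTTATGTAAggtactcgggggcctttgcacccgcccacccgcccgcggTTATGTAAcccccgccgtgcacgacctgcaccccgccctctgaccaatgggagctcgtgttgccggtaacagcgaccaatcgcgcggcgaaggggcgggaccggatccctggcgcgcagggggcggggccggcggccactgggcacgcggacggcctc

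Such a match was present in 493 of 32851 promoter windows of this length (1.5%), and it describes the sequence only. The clock genes that peak together with Dbp were listed as 12, and 11 were tested, each by its brightest probe. The called Per3 probe is not among these 11 probes. Of the 11, 2 lay above and 9 below 0, with a median log2 difference of -0.48, against 0.02 over all 12310 genes by their brightest probe. The median was -0.52 without replicates 16 and 24 and -0.18 in wild-type. With all pools only Nr1d2, the REV-ERBβ repressor, passed an unadjusted P of 0.05, where 8.02% of all genes were lower and 8.40% higher. Without replicates 16 and 24, 3 of the 11 were lower and 1 higher at that P, against 6.23% and 7.49% of all genes. Nr1d2 had 7.61, 6.57 and 7.75 in NoRun and 5.33, 6.23 and 7.28 in Run (log2 difference -1.05, adjusted P = 0.212), and its pools overlapped. Tef gave -0.73 (adjusted P = 0.262), Ciart -0.57 (adjusted P = 0.363) and Hlf 0.41 (adjusted P = 0.281), and Dbp, named here for the motif, gave -0.62 (adjusted P = 0.572). The hour at which the mice were killed is not given per pool.

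The called probes were then compared with the same contrast in wild-type mice. In wild-type, 45 probes (0.194%) passed the adjusted threshold for Run minus NoRun, and none of the 31 was among them. The wild-type difference had the sign of the Dio2-/- difference in 30 of the 31, against 68.5% of all tested probes, and it was smaller in all 31. The probes were chosen on the Dio2-/- values, so a smaller size in the other genotype follows from the choice. The 2 shares of equal sign are also not alike. The smallest absolute log2 difference among the 31 was 0.748, against a median of 0.219 over all tested probes. The wild-type NoRun pools lay on chip 4 and their Run pools on chips 1, 2 and 6.

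The test of the difference itself, the running effect in Dio2-/- minus that in wild-type, called 0 of 23148 probes (smallest limma adjusted P 0.315). At an unadjusted P of 0.05 it held 1187 probes (5.13%), and 23 of the 31 were among them. The 31 were chosen on the Dio2-/- difference, which is a term of this contrast. A larger share and larger gaps among them therefore follow in part from the choice, as do intervals that leave out 0. Gaps between the genotypes included those of Pbrm1 (-1.35, 95% interval -1.92 to -0.78), Slc7a10 (-1.35, -2.13 to -0.57), Per3 (-1.32, -2.03 to -0.61) and St6galnac6 (0.94, 0.52 to 1.36). Without replicates 16 and 24 the test called 13 probes (0.0562%), none of them among the 31. These 13 include Rps23rg1, Gsk3a, Pgrmc2, Ctnnb1 and Phospho1, named after their values were seen. In Gsk3a, a kinase of the Wnt and insulin routes that stood at 8.67 in NoRun replicate 16 and at 6.62 to 7.49 in the other 8 pools, the log2 difference in Dio2-/- was -0.07 with all pools and 0.54 without the 2 replicates, while in wild-type it was -1.26.

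**Figure D3:**
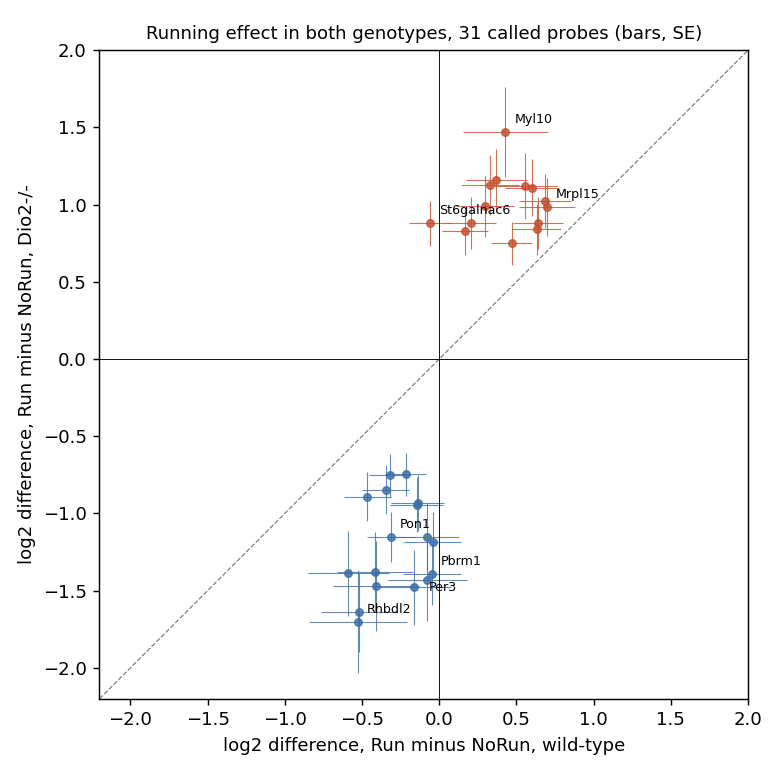
Log2 difference, Run minus NoRun, of the 31 called probes in wild-type (horizontal axis) and in Dio2-/- (vertical axis); bars are standard errors and the dashed line marks equal differences. Of the 31 probes, 30 lie in the quadrants of equal sign and all lie farther from 0 on the vertical axis, on which they were selected.

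Beyond the called probes, the largest differences were negative and did not reach the threshold with all pools. Prrc2c, an RNA-binding protein of stress granules, had 9.13, 8.21 and 7.38 in NoRun and 5.02, 5.20 and 7.41 as lowest, median and highest value in Run. It was above background in only 2 of the 6 Run pools, so the size of the difference is set by background in the rest. The log2 difference was -2.48 (adjusted P = 0.0511, and 0.0362 without replicates 16 and 24), and a second probe, also detected in 2 Run pools, gave -1.90 (adjusted P = 0.0521) while 4 others lay between -0.64 and 0.17. Golga2, a Golgi matrix protein, gave -2.11 and Ddx21, a nucleolar RNA helicase, -2.02, with adjusted P of 0.0792 and 0.0804. Lrrk1, a kinase needed by osteoclasts, had 9.67, 7.86 and 7.64 in NoRun and 5.56 to 7.98 in Run (adjusted P = 0.0681).

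A probe of Vim, the intermediate filament vimentin, had 8.28, 6.81 and 7.80 in NoRun, 7.95 in Run replicate 24 and 4.95 to 5.56 in the other 5 Run pools. Only replicate 24 was above background in Run. The fitted difference without replicates 16 and 24 (-2.11, adjusted P = 0.0221) is therefore set against background. The bright Vim probe gave -0.01. The brighter probes of Golga2 and Lrrk1 gave -0.23 and -0.02. Nfic, a transcription factor of the NFI family (-1.95), Stxbp3, which acts in vesicle fusion (-1.88), and Zbtb38, which binds methylated DNA and was detected in 2 Run pools (-1.84), completed this list of 8. In all 8 genes replicate 16 was the highest of the 9 pools, replicate 24 was the highest Run pool, and replicate 25, the other pool of chip 6, was the next highest.

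The largest positive differences were of another kind. Upb1, Trbv13-2, Haao, Pdzk1 and Cldn10 had log2 differences of 1.25 to 1.46 and adjusted P of 0.0996 to 0.141. In each of them NoRun replicate 16 was the lowest of the 9 pools and Run replicate 24 the lowest Run pool, as for the neutrophil genes. Trbv13-2 is a T cell receptor segment, Haao an enzyme of tryptophan breakdown, Pdzk1 a scaffold of membrane transporters and Cldn10 a tight junction protein. Upb1, an enzyme of pyrimidine breakdown, had 5.36 in replicate 16 and 8.20 in both other NoRun pools, against 7.77 to 9.12 in Run. These 5 differences were 0.59 to 0.80 without replicates 16 and 24, and none passed. Prpf8, described above, had a larger uncalled difference of 1.48 with the same lowest pools. It passed without those replicates (log2 difference 1.16, limma adjusted P = 0.0422). Coq6, a hydroxylase of ubiquinone synthesis, did not overlap between the groups, with 5.42, 6.37 and 6.67 in NoRun and 7.02 to 7.84 in Run (log2 difference 1.30, adjusted P = 0.0521). It was above background in 2 of the 3 NoRun pools, and its brighter probes gave 0.32 and -0.03.

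Adipocyte genes had the lowest median of the 37 gene lists. Of 8 tested genes, 7 were lower in Run and 1, Pparg, was higher, and 6 of the 8 were lower at an unadjusted P of 0.05, against 8.02% of all genes. The median log2 difference was -0.92, and it was -0.93 without replicates 16 and 24, where again 6 were lower, against 6.23% of all genes (7.49% higher). In wild-type the median was 0.03. No gene of the list passed the adjusted threshold with all pools. The mean of the list was 9.62 to 10.07 in NoRun and 8.80, 9.14 and 9.54 as lowest, median and highest value in Run, without overlap.

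Cidec, a lipid droplet protein of fat cells, had 10.79, 10.21 and 10.63 in NoRun and 8.54, 9.34 and 10.18 in Run, with replicate 24 the highest Run pool. The groups did not overlap, with a log2 difference of -1.28 (SE 0.30, adjusted P = 0.0648), and without replicates 16 and 24 it was called (adjusted P = 0.0477). Fabp4, the fatty acid binding protein of adipocytes, had 6.44, 5.76 and 6.34 in NoRun and 4.86 to 5.59 in Run, where it was not above background (NoRun at least 1.42-fold higher, adjusted P = 0.0586). Plin4, which coats lipid droplets, gave -0.97 (adjusted P = 0.0843), with overlapping pools. Adipoq, the adipocyte hormone adiponectin and the defining marker of the list, had 12.69, 12.40 and 12.85 in NoRun and 11.53, 12.07 and 12.48 in Run (log2 difference -0.59, adjusted P = 0.124). Lep (leptin), named after its values were seen, also had no overlap, with 10.54, 9.99 and 10.95 against 8.49 to 9.70 (log2 difference -1.22, adjusted P = 0.126).

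**Figure D4:**
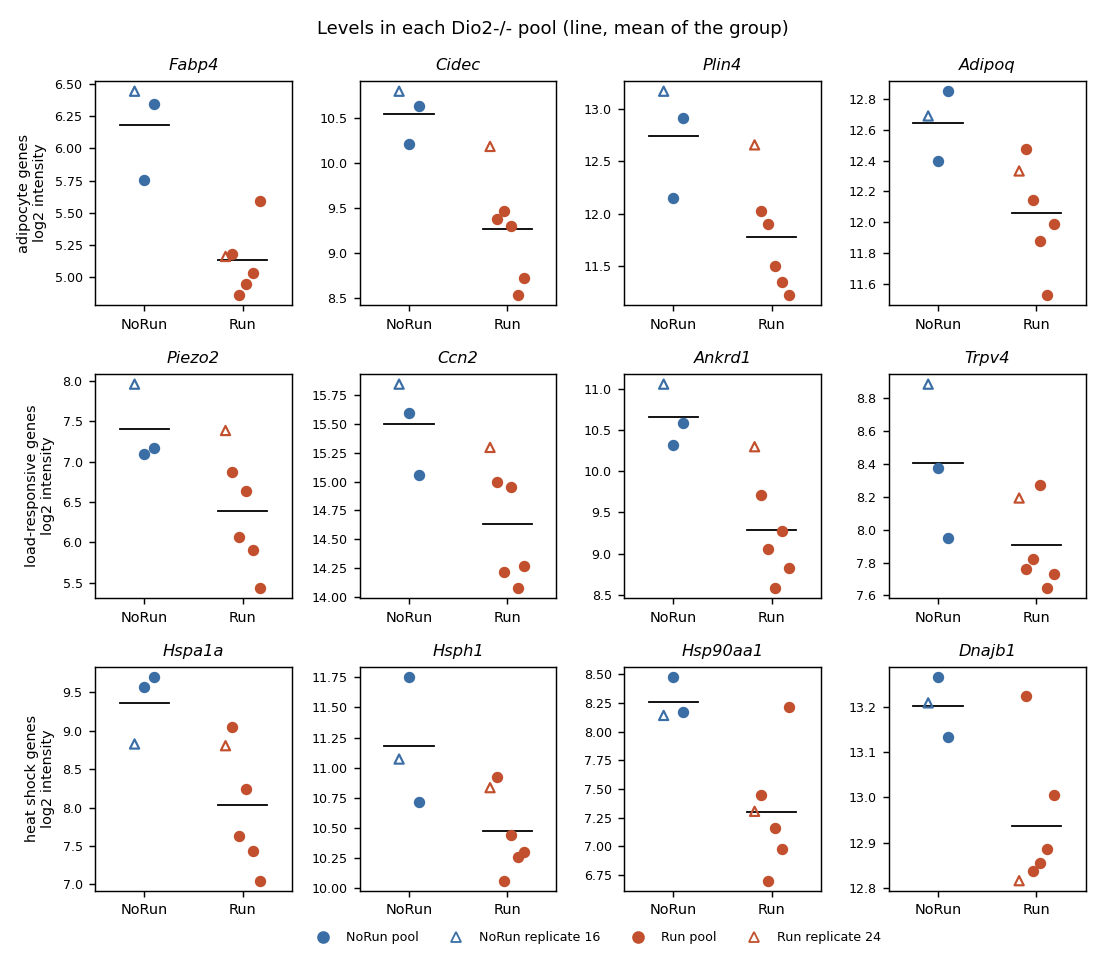
Log2 intensity (vertical axes, each with its own scale that does not start at 0) of 4 adipocyte, 4 load-responsive and 4 heat shock genes in the 3 NoRun pools (blue) and the 6 Run pools (red) of Dio2-/- mice; lines are group means and triangles mark replicates 16 and 24. Fabp4, Cidec and Ankrd1 show no overlap between the groups, and the other 9 genes overlap.

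The load-responsive list joined genes that rise with stretch of the cell in culture, among them YAP targets, with load-sensing channels such as Piezo2 and Trpv4. All of its tested genes were below 0. Of the 9 tested, 5 were lower at an unadjusted P of 0.05, against 8.02% of all genes, and none was higher, with a median of -0.50, and none was called. The median was -0.36 without replicates 16 and 24, with 8 below 0 and 5 lower at that P, against 6.23% of all genes, and in wild-type it was -0.32. Ankrd1, a YAP target, had 11.05, 10.32 and 10.58 in NoRun and 8.59, 9.16 and 10.30 in Run, without overlap (log2 difference -1.36, SE 0.45, adjusted P = 0.127). Ccn2, connective tissue growth factor, had 15.85, 15.60 and 15.06 against 14.08, 14.61 and 15.30 (-0.87, adjusted P = 0.111), with overlap. The mechanosensitive channels Piezo2 and Trpv4 gave -1.02 (adjusted P = 0.101) and -0.50 (adjusted P = 0.193), and Trpv4 gave -0.32 without replicates 16 and 24. The difference between the genotypes for these 4 genes lay between -0.58 and -0.15, and each of its 95% intervals held 0.

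Heat shock genes were mostly below 0. Of 12 tested, 10 lay below and 2 above, with a median of -0.31 (-0.36 without replicates 16 and 24), and 3 were lower at an unadjusted P of 0.05, against 8.02% of all genes. None was called. Hspa1a, an inducible HSP70, had 8.83, 9.57 and 9.70 in NoRun and 7.05, 7.94 and 9.05 in Run, and NoRun replicate 16 lay below Run replicate 25 (log2 difference -1.33, SE 0.44, adjusted P = 0.126, and 0.0876 without replicates 16 and 24). Its near-identical copy Hspa1b, below background in all NoRun pools, gave 0.24, and transcripts of one can bind to a probe of the other. Hsp90aa1 gave -0.96 (adjusted P = 0.196), Hsph1 -0.71 (adjusted P = 0.162) and Dnajb1 -0.27 (adjusted P = 0.266).

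The promoter of Hspa1a is shown as an example. The list was chosen by gene and not by promoter sequence, and matches of its other members are not given. Heat shock elements, the sites of the heat shock factors, were searched as GAANNTTC or TTCNNGAA in the 250 bases before each start. The Hspa1a window, on the minus strand at chr17:34972157-34972406, holds 1 match, in capitals, with 96 bases between it and the start, and 4218 of 32851 windows (12.8%) hold at least 1.
Hspa1a: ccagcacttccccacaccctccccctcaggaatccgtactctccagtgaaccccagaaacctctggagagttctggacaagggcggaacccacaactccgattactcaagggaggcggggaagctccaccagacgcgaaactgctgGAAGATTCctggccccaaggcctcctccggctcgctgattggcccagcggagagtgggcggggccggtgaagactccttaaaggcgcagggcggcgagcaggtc

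**Figure D5:**
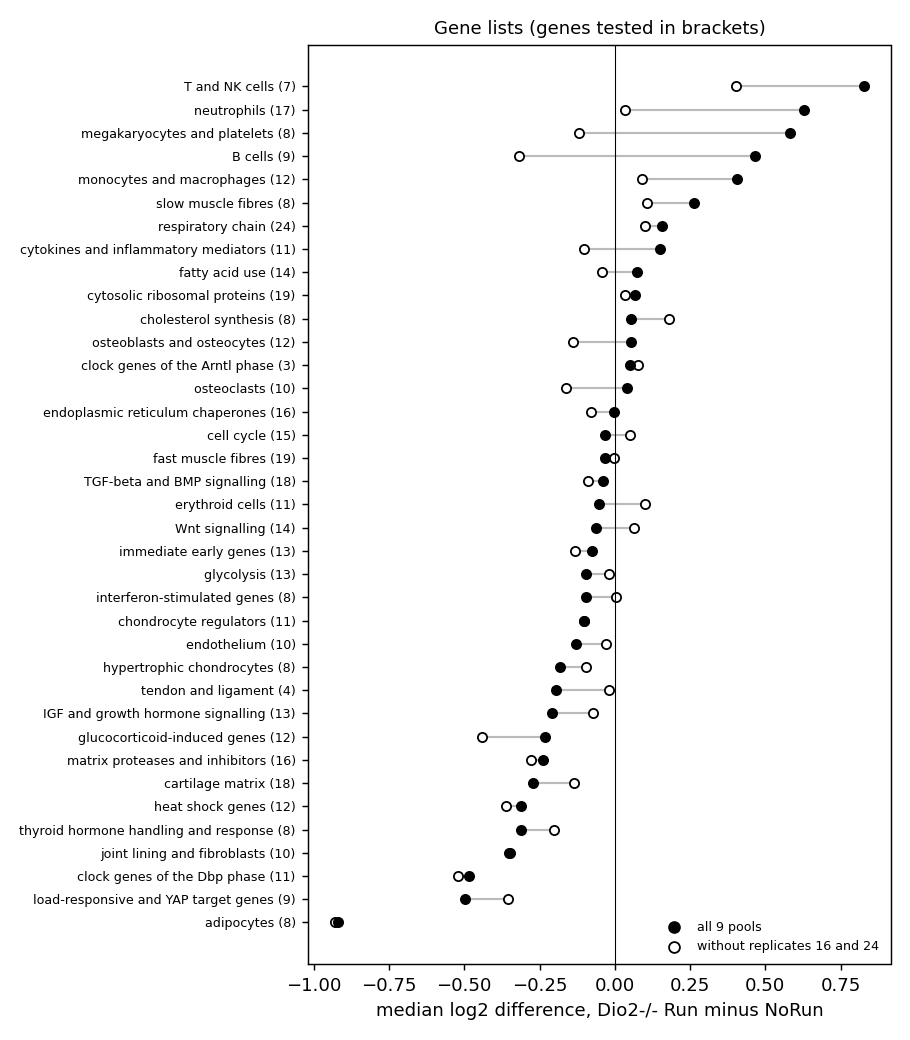
Median log2 difference, Dio2-/- Run minus NoRun (horizontal axis), of the tested genes of each of the 37 lists, with all 9 pools (filled) and without replicates 16 and 24 (open); the number of genes is in brackets. The adipocyte median is -0.92 and -0.93, while the medians of neutrophils, megakaryocytes, B cells and T and NK cells move towards or past 0 when the 2 replicates are left out.

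Glucocorticoid-induced genes lay below 0 in 11 of 12, with a median of -0.23, and 2 were lower at an unadjusted P of 0.05, against 8.02% of all genes. The median was -0.44 without replicates 16 and 24, and in wild-type it was 0.15. Zbtb16, a strongly steroid-induced zinc finger factor, had 9.12, 8.87 and 8.20 in NoRun and 6.79, 7.26 and 8.36 in Run (log2 difference -1.19, adjusted P = 0.0804), and its highest Run pools, replicates 24 and 25, overlapped NoRun replicate 19. Klf9, which thyroid hormone also induces, gave -0.52 (adjusted P = 0.256), Per1 -0.48 (adjusted P = 0.462, and -0.97 without replicates 16 and 24) and Mt2 -0.47 (adjusted P = 0.392).

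The thyroid hormone list holds the genes nearest to the deleted enzyme in function. Of its 8 tested genes, 7 lay below 0, with a median of -0.31, -0.20 without replicates 16 and 24 and -0.19 in wild-type. At an unadjusted P of 0.05, 2 of the 8 were lower, against 8.02% of all genes, and none was called. Without replicates 16 and 24, 1 was lower and 1 higher at that P, against 6.23% and 7.49% of all genes. Hr (hairless), a corepressor that thyroid hormone induces in brain and skin, had 11.43, 10.30 and 10.70 in NoRun and 9.44, 10.11 and 10.75 in Run (log2 difference -0.69, adjusted P = 0.151), and replicate 16 stood above the other NoRun pools. Rxra, the partner receptor, gave 0.24 (adjusted P = 0.457), and 0.42 without replicates 16 and 24.

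Cartilage matrix genes did not pass the test in either direction. Of 18 tested, 2 were lower at an unadjusted P of 0.05, against 8.02% of all genes, and none without replicates 16 and 24. Below 0 lay 14 and above it 4, with a median of -0.27 that became -0.14 without replicates 16 and 24, and it was -0.48 in wild-type. The list mean ran from 9.49 to 10.24 in NoRun and from 9.23 to 10.05 in Run, with replicate 16 highest of all pools and replicate 24 highest in Run. Col2a1 had 14.76, 13.81 and 14.50 in NoRun and 13.32, 14.23 and 15.20 in Run (log2 difference -0.12, SE 0.39, adjusted P = 0.886). Its difference from wild-type, where running gave -1.11, was 0.99 and did not pass (adjusted P = 0.956). Comp gave -0.31 (adjusted P = 0.574). Matn4 (-0.83, adjusted P = 0.192), Prelp (-0.66, adjusted P = 0.254) and Cilp (-0.45, adjusted P = 0.317), all matrix proteins, overlapped between the groups, and were -0.52, -0.44 and -0.13 without replicates 16 and 24.

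Aggrecan, the main cartilage proteoglycan, and the other genes named in the paper were given by all their tested probes. Acan had 11.62, 10.81 and 10.76 in NoRun and 10.08 to 11.18 in Run at its brighter probe (log2 difference -0.47, adjusted P = 0.284, and -0.28 without replicates 16 and 24). The dimmer one gave -0.14 (adjusted P = 0.804), which was 0.11 without replicates 16 and 24. Calr, the calcium-binding chaperone calreticulin, had 10.36, 9.81 and 9.95 in NoRun and 9.24 to 10.62 in Run, where replicate 24 was lowest and replicate 25 highest. The Run range enclosed the NoRun range (log2 difference -0.13, SE 0.25, adjusted P = 0.799), and without replicates 16 and 24 it was 0.16. Hmgb2, a chromatin protein of the superficial cartilage zone, gave 0.13 (adjusted P = 0.720), and 0.26 without them. Socs2, a brake on growth hormone signalling, had 11.33, 11.07 and 11.30 against 10.51 to 11.31 (-0.38, adjusted P = 0.211). Sox4, a SOX family transcription factor, gave -0.58 (adjusted P = 0.162) at its bright probe and -0.42 (adjusted P = 0.427, and 0.03 without replicates 16 and 24) at its dim one.

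Genes of chondrocyte hypertrophy showed 1 of 8 lower at an unadjusted P of 0.05, against 8.02% of all genes. Mef2c, a transcription factor that drives hypertrophy, had 13.69, 12.32 and 12.88 in NoRun and 10.77, 11.37 and 12.83 in Run (log2 difference -1.34, SE 0.38, adjusted P = 0.0861, and 0.0799 without replicates 16 and 24). It is expressed in muscle, endothelium and immune cells too. Ihh gave 0.55 (adjusted P = 0.371), Vegfa -0.37 (adjusted P = 0.502) and Alpl -0.24 (adjusted P = 0.545), and the list median was -0.18 with all pools and -0.10 without replicates 16 and 24. Among chondrocyte regulators (11 tested, median -0.10, 1 higher and 2 lower at that P, against 8.40% and 8.02% of all genes, and 0 and 1 without replicates 16 and 24), Sox5 gave -0.71 (adjusted P = 0.227, and -0.40 without those replicates), Trps1 -0.82 (adjusted P = 0.277) and Barx2 0.73 (adjusted P = 0.163).

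Matrix proteases and their inhibitors lay below 0 in 12 of 16, with a median of -0.24 and 2 genes lower at an unadjusted P of 0.05, against 8.02% of all genes. Timp2, an inhibitor of metalloproteinases, had 13.88, 13.03 and 13.23 in NoRun and 12.44, 12.65 and 13.32 in Run (log2 difference -0.60, adjusted P = 0.126). Timp3 gave -0.43 (adjusted P = 0.254), the serine protease Htra1 -0.69 (adjusted P = 0.341, and -0.30 without replicates 16 and 24) and cathepsin B, Ctsb, -0.38 (adjusted P = 0.406). Genes of joint lining and fibroblasts lay below 0 in 8 of 10, with a median of -0.35 with and without replicates 16 and 24, and 3 were lower and 1 higher at an unadjusted P of 0.05, against 8.02% and 8.40% of all genes. Without those replicates 1 was lower and none higher, against 6.23% and 7.49%. Dpt, the matrix protein dermatopontin, gave -1.17 (adjusted P = 0.0833), Clic5 -1.02 (adjusted P = 0.152) and Pdgfra, a receptor of fibroblasts, -0.64 (adjusted P = 0.168), and the last 2 were -0.58 and -0.38 without those replicates. Vcam1 was the exception, at 0.89 (adjusted P = 0.251), with 10.89 in replicate 16 against 13.96 and 13.66 in the other NoRun pools, and its difference without replicates 16 and 24 was 0.08.

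Genes of growth factor signalling lay on both sides of 0. In the IGF and growth hormone list, 5 of 13 lay above and 8 below 0, and 2 were higher and 4 lower at an unadjusted P of 0.05, against 8.40% and 8.02% of all genes. Igfbp5, which binds IGFs, had 15.41, 14.14 and 14.39 in NoRun and 13.47, 13.81 and 14.72 in Run (log2 difference -0.73, adjusted P = 0.142). Igf1r, the IGF receptor, had 10.59, 10.72 and 10.87 against 10.22 to 10.58, without overlap (-0.32, adjusted P = 0.206). Igfbp2 had 5.62, 5.66 and 5.67 against 5.68 to 6.61, also without overlap but by a narrow gap (0.49, adjusted P = 0.160). The lowest detected signals of these NoRun arrays were 5.87, 5.54 and 5.55, so background sets part of the Igfbp2 difference. In the TGF-β and BMP list, 7 of 18 lay above and 11 below 0, with a median of -0.04 (-0.09 without replicates 16 and 24). The BMP receptor Bmpr1a had 7.43, 7.25 and 7.93 in NoRun and 6.02 to 6.93 in Run, without overlap (-0.98, adjusted P = 0.115), and Bmp7 gave 0.71 (adjusted P = 0.138), and 0.34 without those replicates. Bmpr2 gave -0.52 (adjusted P = 0.173) and Smad3 -0.47 (adjusted P = 0.212).

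Endoplasmic reticulum chaperones, the class to which calreticulin belongs, split around 0, with 7 of 16 above and 9 below, and 1 higher and 3 lower at an unadjusted P of 0.05, against 8.40% and 8.02% of all genes. With replicates 16 and 24 left out, 13 of the 16 lay below 0, with a median of -0.08, and 4 were lower at that P, against 6.23% of all genes. Hsp90b1, the chaperone GRP94, had 12.35, 12.96 and 12.60 in NoRun and 11.58 to 12.24 in Run, without overlap (log2 difference -0.73, adjusted P = 0.154). Herpud1 gave -0.36 (adjusted P = 0.171) and Dnajb9 -0.56 (adjusted P = 0.244, and -0.87 without replicates 16 and 24). Sdf2l1 gave 1.03 (adjusted P = 0.256, and 0.50 without them), and it was lowest in replicate 16 at 6.84 and, within Run, in replicate 24 at 7.93.

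Blood cell genes moved with the pools that stand apart. All 17 tested neutrophil genes lay above 0 with all pools, with a median of 0.63, and 10 of the 17 did without replicates 16 and 24, with a median of 0.03. The medians of monocytes and macrophages (0.40 and 0.09), B cells (0.47 and -0.32) and megakaryocytes (0.58 and -0.12) changed likewise. T and NK cell genes had a median of 0.83 with all pools and 0.40 without those replicates, and 4 of 7 were higher at an unadjusted P of 0.05 in either case, against 8.40% of all genes with all pools and 7.49% without the 2 replicates, where Cd4 was lower. Cd3e, a chain of the T cell receptor complex, had 5.54, 8.07 and 7.36 in NoRun and 6.82, 8.26 and 8.37 in Run (log2 difference 1.04, adjusted P = 0.174, and 0.55 without the 2 replicates). Klrd1 (0.83), Cd3d (1.36) and Nkg7 (0.84) were not called, and were 0.44, 0.40 and 0.27 without them. Fast muscle genes had a median of -0.03, while Myh4, the fastest myosin, gave -1.51 (adjusted P = 0.171), with 13.03 in replicate 16 and 8.95 to 11.65 in Run.

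The labels split the Run pools by chip and by position on the chip, and values by chip are given here. Set against the NoRun pools, the Run pools of chips 3, 4 and 6 each gave the sign of the call in all 31 probes, with median log2 sizes of 1.13, 1.12 and 0.91. That sign was fixed in advance, since no Run pool overlapped NoRun in these probes, and it tests nothing. The adipocyte median was -0.98, -1.05 and -0.38 on chips 3, 4 and 6, the load-responsive median -0.49, -0.67 and -0.28, and the clock median -0.46, -0.96 and -0.09. These values share the NoRun pools of chip 5. In 12 of the 17 lower and 3 of the 14 higher probes, both pools of chip 6 were the Run pools nearest to NoRun, replicate 25 as well as replicate 24. Between 2 chips that both hold wild-type Run pools, chip 2 minus chip 1 had the sign of the call in 25 of the 31 probes (80.6%), with a median of 0.22 in the direction of the call, and in 73.1% of the 4447 probes with an unadjusted P below 0.05. For whole lists the same chip difference went both ways. It was 0.17 for adipocyte, 0.14 for load-responsive, 0.52 for clock and 0.32 for glucocorticoid-induced genes, opposite in sign to the Dio2-/- medians. It was -0.05 for heat shock, -0.11 for cartilage matrix and -0.32 for hypertrophy genes, with the sign of the Dio2-/- medians. The part of the chip in the running differences was not tested and cannot be told apart from running.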

How the data were processed

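Cartilage RNA pooled from 2 mice per array was hybridised to Illumina MouseWG-6 v2 chips, and the authors exported probe-level values with GenomeStudio (version not given). The deposited intensity values are not normalized, and each has a deposited detection P-value against the negative control probes of its array. The authors' own deposited table of log2 values, normalized between arrays by a method not given, served as an alternative. The authors left out repeat arrays, which are not analysed here. In R 4.3.3, limma 3.58.1 neqc corrected the background with the control moments inferred from the detection P-values, quantile-normalized and took log2 after an offset of 16. This offset shrinks the differences of dim probes, and the number of arrays limits the precision.

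One linear model of 4 groups was fitted to all 20 arrays with empirical Bayes moderation. P-values were adjusted by Benjamini and Hochberg over all 23148 tested probes and are two-sided. The wild-type arrays thus add to the estimate of the spread. A list counted each gene by its brightest tested probe with 1 symbol, and probe symbols came from the platform annotation. Named were the genes of the paper for these arrays, the 12 genes per direction with the smallest P, the 8 per direction with the largest difference among those with unadjusted P below 0.01 with all pools and without replicates 16 and 24, and per list its 4 members with the smallest P and its defining markers. "At least" folds set the mean of the detected group against the lowest detected signal of each array. The members and lists were chosen with earlier results of these data known. The fit was tested on simulated data. The alternatives changed the background correction, normalization, filter, variance estimate, chip terms and pools.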

Additional observations from a re-analysis of the deposited data

Results flagged for a closer look

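A value in Run was listed here when the highest or lowest of the 6 pools was separated from its nearest neighbour by a share of the whole range above Dixon's 95% critical value. Of 155 values checked, 118 probes and 37 list means, 16 met this, and 15 of the 16 were replicate 24. Chance alone gives about 1 in 20, and the values share pools and genes. Replicate 24 had been set apart beforehand by marrow and muscle transcripts, and lists of such genes were among the values checked. The count therefore describes this pool and tests nothing.

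Replicate 24 was the lowest Run pool for genes of lymphocytes and for other genes low in NoRun replicate 16. Its log2 intensity was 6.816 for Cd3e, 8.128 for Cd3d, 7.642 for Klrd1 and 11.32 for Nkg7, and the next pools stood at 8.105, 9.522, 8.637 and 12.4. It had 8.431 for Trbv13-2, a T cell receptor segment, 7.019 for Haao, 7.156 for Cldn10, 12.95 for Vcam1 and 7.934 for Sdf2l1. The list means were 13.18 for neutrophils, 9.096 for monocytes and macrophages and 7.349 for T and NK cells in this pool.

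Replicate 24 was the highest Run pool for Slc5a3 (5.805), the dim Vim probe (7.946) and Igfbp5 (14.72), with the next pools at 5.204, 5.556 and 13.93. Itpripl2 was highest in replicate 25 (10.53), with replicate 24 next at 10.09. Slc5a3 and Itpripl2 kept no overlap with NoRun.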

How the results depend on the processing

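The 31 calls became 7 without background correction, 5 with cyclic loess, 8 in the authors' normalized table, 14 with detection on all 20 arrays, 18 with no filter, 0 with the 9 Dio2-/- arrays alone, 5881 with array weights, 2 with chip as a random block, 0 with position on the chip as a covariate, 213 without replicates 16 and 24, 2133 with Run pools of chip 3 only and 1 with those of chips 4 and 6 only. Leaving out 1 pool gave 1 to 2547. The cause was not tested. In all 23 alternatives the calls that were tested kept their sign and an unadjusted P below 0.05. Where pools were only left out, the sign was fixed by the lack of overlap between the groups. The 4447 probes at that P became 2863 with 9 arrays, 8877 with weights, 1647 with chips 4 and 6, and 2334 to 6634 without 1 pool. The 0 interaction calls became 1 in the authors' table, 827 with weights, 13 without replicates 16 and 24, 7 with chip 3, and 0 to 11 without 1 pool (11 without NoRun replicate 16). The 62 list genes at an unadjusted P below 0.05 became 37 with 9 arrays, 144 with weights, 36 with the chip block, 103 with chip 3, 18 with chips 4 and 6, and 33 to 112 without 1 pool. The neutrophil mean of NoRun replicate 16 minus that of the 7 pools other than replicate 24 was -2.33 on the log2 scale, and -2.14, -2.19 and -2.09 without background correction, with cyclic loess and in the authors' table.

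Among the 118 probes recomputed under the alternatives, the values that changed sign were all uncalled. With array weights Acan (dimmer probe) was 0.0974, Calr 0.0565, Mt2 0.287 and Gsk3a 0.673. Without replicates 16 and 24 Acan was 0.112, Calr 0.164, Gsk3a 0.540 and Sox4 (dim probe) 0.0325. Col2a1 was 0.0379 with chips 4 and 6. Leaving out 1 pool at a time gave -0.320 to 0.214 for Acan, -0.272 to 0.0299 for Calr, -0.395 to 0.0755 for Col2a1, -0.476 to 0.549 for Gsk3a and -0.0808 to 1.45 for Vcam1. Calr turned without NoRun replicate 16 and without Run replicate 24, Col2a1 without NoRun replicate 16 and without Run replicates 32 and 35, and Acan, Gsk3a and Vcam1 without NoRun replicate 16. Among 2671 values of single probes, 394 lost and 158 gained their call. The adipocyte median lay between -1.17 and -0.42 and the load-responsive median between -0.57 and -0.26 over the 23 alternatives. No paired analysis was possible because the replicate numbers of the groups are all different. The 3 NoRun pools and their single chip set the limit: no alternative here separates running from chip 5.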

Other observations

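Medians of other gene groups are given with all 9 pools and then without replicates 16 and 24. Genes of the respiratory chain lay above 0 in 17 of 24 (medians 0.16 and 0.10), with 2 higher at an unadjusted P of 0.05, near the 8.40% of all genes, and 0 without those replicates. Cytosolic ribosomal proteins lay above 0 in 14 of 19 (0.07 and 0.03), with 2 higher at that P with and without those replicates, against 8.40% and 7.49% of all genes. Medians over 14 genes of fatty acid use (0.07 and -0.04), 15 of the cell cycle (-0.03 and 0.05) and 14 of Wnt signalling (-0.06 and 0.06) turned. Each of these lists held 1 gene past that P with all pools, against 8.40% of all genes higher and 8.02% lower. Without those replicates 3 cell cycle genes were higher and 1 lower at that P, against 7.49% and 6.23% of all genes. Glycolysis (13 genes, -0.10 and -0.02), cholesterol synthesis (8, 0.05 and 0.18) and immediate early genes, which respond within minutes to stimulation (13, -0.08 and -0.13), kept their sign.

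Bone genes were split. Medians of the 12 osteoblast and osteocyte genes (0.05 and -0.14) and of the 10 osteoclast genes (0.04 and -0.16) turned when the replicates were left out. Col1a2, a type I collagen chain, had no overlap, with log2 intensities of 10.72, 10.39 and 10.87 in NoRun and 9.06 to 10.16 in Run (difference -0.98, limma adjusted P = 0.229, and -1.05 without those replicates). Endothelial genes (10, -0.13 and -0.03), tendon and ligament genes (4, -0.19 and -0.02) and slow muscle genes (8, 0.26 and 0.11) moved towards 0. Medians of erythroid genes (11, -0.05 and 0.10) and of cytokines (11, 0.15 and -0.10) turned, and that of 8 interferon-stimulated genes was -0.10 with all pools and 0.00 without those replicates. At an unadjusted P of 0.05, 3 erythroid genes were higher without those replicates and none with all pools, against 7.49% and 8.40% of all genes.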
